A study of Mus musculus with 9 samples.

Results

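The genes described here make serine and answer to the supply of amino acids in the cell. They are 10 of the 54532 genes listed in each deposited table, taken by gene name, with earlier results of these data known. These are the 3 enzymes of serine synthesis (Phgdh, Psat1 and Psph), 5 genes of the response to amino acid shortage (Asns, Trib3, Chac1, Sesn2 and Atf5) and the 2 subunits of an amino acid exchanger (Slc7a5 and Slc3a2). Their RNA was measured by sequencing in the hippocampus of 9 mice in 3 groups of 3. The labels describe all of them as male C57BL/6 mice aged 6 to 8 weeks at purchase, and the Con and HMD mice as wild type, although the strain tags of the Bet+HMD samples read C57BL/6, C57BL/7 and C57BL/8. Con mice ate a standard diet, and HMD mice ate a high-methionine diet for 8 weeks, which the study uses to raise homocysteine. Bet+HMD mice had the high-methionine diet for 8 weeks and then 2.5% (w/v) betaine in their drinking water for 2 weeks. Whether the diet went on during the betaine is not clear from the labels, and these mice went through a protocol 2 weeks longer than the HMD mice.

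Serine is made from a glycolytic intermediate in 3 steps, and in the brain the first enzyme, Phgdh, is found mainly in astrocytes and radial glia. Serine feeds the folate cycle and glycine synthesis, and it is the partner of homocysteine in the first step of transsulfuration, while betaine returns homocysteine to methionine. When amino acids run short, the kinase Gcn2 (Eif2ak4) phosphorylates the initiation factor eIF2, translation of the transcription factor Atf4 rises, and Atf4 switches on genes of amino acid synthesis and uptake. Many of its targets are read as signs of this response.

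All 10 members were listed as protein-coding genes, with the same position in the deposited tables and in the GENCODE M21 annotation of GRCm38. Phgdh (ENSMUSG00000053398) lies on chromosome 3 at 98313170 to 98339990, Psat1 (ENSMUSG00000024640) on chromosome 19 at 15904678 to 15947337, and Psph (ENSMUSG00000029446) on chromosome 5 at 129765558 to 129787449. Asns (ENSMUSG00000029752) is on chromosome 6 at 7675169 to 7693254, Trib3 (ENSMUSG00000032715) on chromosome 2 at 152337422 to 152344032, and Chac1 (ENSMUSG00000027313) on chromosome 2 at 119351229 to 119354381. Sesn2 (ENSMUSG00000028893) is on chromosome 4 at 132492032 to 132510501, and Atf5 (ENSMUSG00000038539) on chromosome 7 at 44812256 to 44816658. Slc7a5 (ENSMUSG00000040010) is on chromosome 8 at 121881150 to 121907694, and Slc3a2 (ENSMUSG00000010095) on chromosome 19 at 8706882 to 8723369. Chac1 is on the plus strand and the other 9 on the minus strand. The start of Psph overlaps Cct6a, and that of Atf5 overlaps Nup62, both on the opposite strand and both expressed (up to 41.9 and 8.87 FPKM). Whether reads were counted by strand is not stated, so reads of each pair cannot be told apart in the overlap.

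Atf4 acts through the C/EBP-ATF response element, searched here as TGATGNAA on both strands (TTNCATCA on the other) from 250 bases before to 50 after the RefSeq start of each gene. Of the 9 members with a promoter window (RefSeq, GRCm38.p6), 3 held a match, namely Asns, Trib3 and Chac1. Over all genes with such a window, 1219 of 27025 (4.51%) held one. None was found in the windows of Phgdh, Psat1, Psph, Sesn2, Atf5 or Slc3a2, which says only that these letters are not in those stretches. The 3 matches are printed in the direction of the gene with 11 bases on each side, with the element in capitals, because they show how the copies differ. That of Asns lies 23 bases before the start (chr6:7693214-7693243, minus strand), that of Trib3 14 bases after it (chr2:152344028-152344057, minus strand) and that of Chac1 193 bases before it (chr2:119351038-119351067, plus strand). The Asns copy reads in the direction of the gene and the others against it.
Asns: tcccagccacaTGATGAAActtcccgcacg
Trib3: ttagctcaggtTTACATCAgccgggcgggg
Chac1: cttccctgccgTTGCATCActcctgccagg

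The 250 bases before the start are printed for Asns (chr6:7693210-7693459) and Chac1 (chr2:119350992-119351241), of which the first was called with betaine and the second was not, and for Phgdh (chr3:98339970-98340219), which had the largest difference of the members on the log2(FPKM + 1) scale. Capitals again mark the element, and the Phgdh stretch has none.
Asns: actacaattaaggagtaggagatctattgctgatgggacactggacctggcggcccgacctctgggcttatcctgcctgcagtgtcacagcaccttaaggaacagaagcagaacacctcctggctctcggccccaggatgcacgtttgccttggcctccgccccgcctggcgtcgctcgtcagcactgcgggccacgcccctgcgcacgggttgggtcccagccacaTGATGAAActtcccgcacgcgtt
Chac1: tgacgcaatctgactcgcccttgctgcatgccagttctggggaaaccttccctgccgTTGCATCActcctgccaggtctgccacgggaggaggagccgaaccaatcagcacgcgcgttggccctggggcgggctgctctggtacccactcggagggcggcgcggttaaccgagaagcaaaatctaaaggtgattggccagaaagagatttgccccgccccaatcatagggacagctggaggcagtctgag
Phgdh: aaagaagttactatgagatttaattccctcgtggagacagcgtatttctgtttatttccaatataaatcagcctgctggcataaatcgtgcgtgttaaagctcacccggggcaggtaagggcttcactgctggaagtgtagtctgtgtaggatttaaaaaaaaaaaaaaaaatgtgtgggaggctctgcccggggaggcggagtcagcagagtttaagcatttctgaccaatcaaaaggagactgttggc

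Levels are given as FPKM, fragments scaled by the authors to gene length and to a size for each library, which can be compared between genes. The libraries held 16449388 to 18566712 reads assigned to genes in the earlier of the 2 deposited tables (Con and HMD only) and 16031464 to 18291952 in the later one, which holds all 9 samples. The size used for scaling, recovered from the values, was 0.9529 to 1.0263 of the assigned reads in Con in the later table. It was 0.9559 to 1.0054 in HMD and 1.0424 to 1.0493 in Bet+HMD, and a larger size gives a lower FPKM. The Con and HMD samples differ slightly between the tables. Each had 0.312% to 5.49% fewer reads in the later one, and the size used for scaling changed too (Con replicate 3, from 1.0534 to 1.0263 of the assigned reads). The Bet+HMD libraries stood apart: 25315 to 25663 genes had a read, against 20816 to 23272 in Con and HMD, and they correlated with the other libraries at r = 0.891 to 0.918 over 13464 genes, against 0.942 to 0.982 among the others and 0.984 to 0.985 among themselves. Their libraries appear only in the later table, so betaine, the extra 2 weeks and any difference in handling cannot be told apart in any comparison with that group. Because hippocampus is a mixed tissue, fewer cells of a type and less RNA per cell cannot be told apart either. Ddx3y, a Y-linked gene, was at 12.7 to 21.2 FPKM in all 9 libraries and Xist at no more than 0.0449, which matches the male label, although the study's methods describe female mice.

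Within the Con hippocampus the members fell into 3 ranges of level, for which the plot of FPKM by sample gives every value. Asns (32.1 ± 1.63 FPKM, SD, n = 3), Psat1 (30.4 ± 1.26), Phgdh (29.3 ± 1.53), Slc3a2 (25.7 ± 5.3) and Slc7a5 (23.6 ± 6.15) were the most abundant, and the ranges of neighbours in this order overlapped. Atf5 (10.8 ± 0.977) lay below all of these, and then came Sesn2 (5.12 ± 0.733), Psph (4.26 ± 0.397) and Chac1 (2.13 ± 0.347), of which only Sesn2 and Psph overlapped. Trib3 was nearly absent. In Bet+HMD every sample of Phgdh (14.5 ± 2.21) lay below every sample of Slc3a2 (21.0 ± 1.59), whereas the ranges of the pair overlapped in Con and HMD. Psat1 (20.4 ± 0.817) and Slc7a5 (20.3 ± 0.866) were also above Phgdh there, as they were in HMD.

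**Figure D1:**
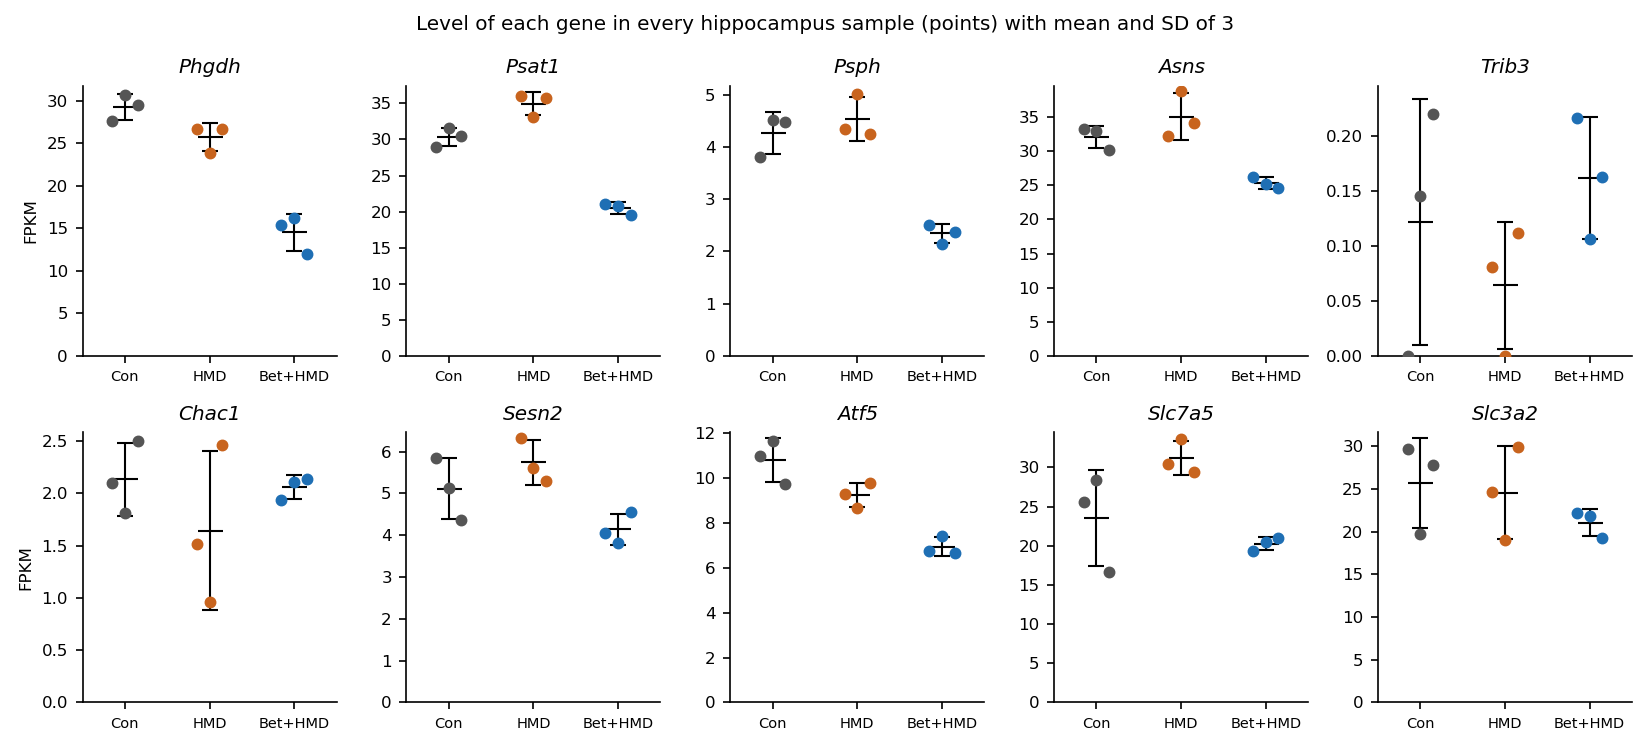
FPKM (vertical axis, linear from 0, scaled per gene) of the 10 members in each of the 9 samples of the later table; points are samples, and the bar and whiskers are the mean and SD of 3. The 3 Bet+HMD points lie below all Con and HMD points for Phgdh, Psat1, Psph, Asns and Atf5.

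HMD was first compared with Con, which asks whether excess methionine alone moved these genes. None of the 9 members tested was called, Trib3 being too low to test, and 0% of the 12989 genes tested passed an adjusted p under 0.05 by limma. A voom fit also called 0 genes, and a fit of all 3 groups called 9, with 0 members among them. At an unadjusted p under 0.05 there were 0 members, against 592 genes (4.56%) overall. The HMD and Con samples did not overlap for 3 members, Phgdh, Psat1 and Slc7a5, against 9.37% of all genes tested. The median log2 fold change was 0.08 over the members and -0.004 over all genes.

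Phgdh, which commits 3-phosphoglycerate to serine, was at 26.8, 29.6 and 28.4 FPKM in Con in the earlier table, where HMD had 26.3, 23.4 and 26.3 (log2 difference -0.15 ± 0.11, SE, 95% interval -0.397 to 0.0913, adjusted p = 0.98). Psat1, the aminotransferase of the second step, was at 28.5, 31.3 and 29.8 FPKM in Con and 36.2, 32.2 and 35.1 in HMD, which is 0.20 ± 0.10 higher on the log2 scale (adjusted p = 0.98). Every HMD sample thus lay below every Con sample for Phgdh and above every Con sample for Psat1, though both intervals include 0. Psph, the phosphatase of the last step, was at 3.71 to 4.43 FPKM in Con and 4.25 to 4.81 in HMD, and the groups overlapped.

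The ratio of 2 genes within one library does not depend on how that library was scaled. Psat1 over Phgdh was 1.05 to 1.06 in the 3 Con samples and 1.34 to 1.38 in the 3 HMD samples of the earlier table, and 1.03 to 1.05 against 1.34 to 1.39 in the later one. In Bet+HMD it was 1.29 to 1.63, above every Con sample and spread around the HMD values. Psph over Phgdh was 0.137 to 0.152 in Con, 0.159 to 0.21 in HMD and 0.132 to 0.198 in Bet+HMD (later table). These ratios were chosen after their values were seen and are given with no test. That Psat1 over Phgdh did not overlap between Con and HMD follows from the separate, opposite ranges of the 2 genes above. Neither of these genes was called.

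**Figure D2:**
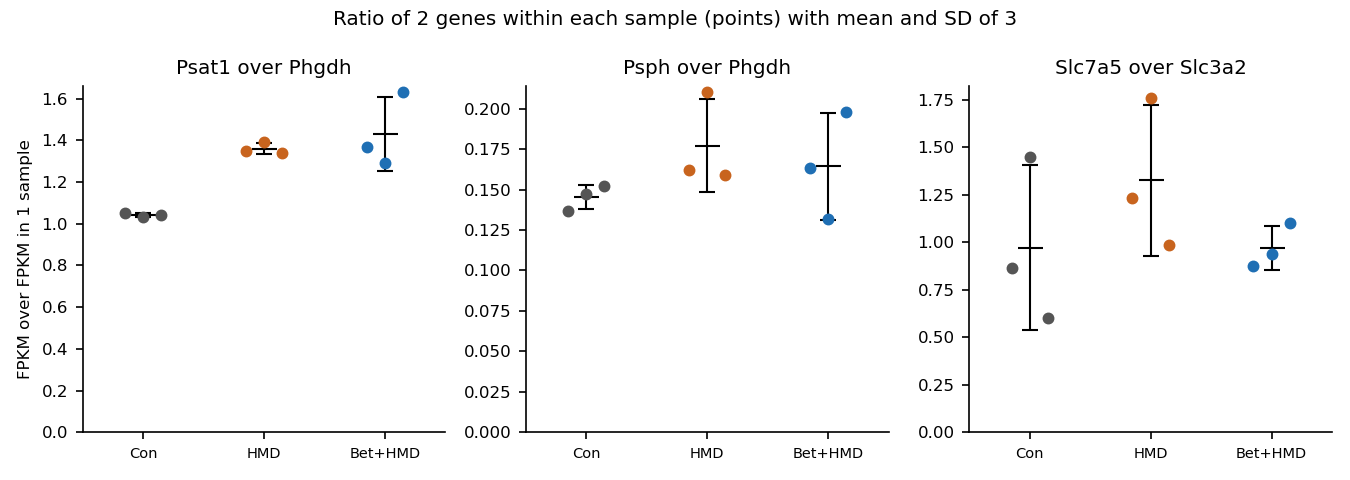
Ratio of the FPKM of 2 genes within each of the 9 samples of the later table (vertical axis, no unit, from 0); points are samples, and the bar and whiskers are the mean and SD of 3. Psat1 over Phgdh lies at 1.03 to 1.05 in Con and at 1.29 to 1.63 in the other 2 groups, while Slc7a5 over Slc3a2 overlaps among all groups.

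Of the response genes, Asns, which makes asparagine, was at 29.4 to 32.7 FPKM in Con and 31.9 to 37.9 in HMD (log2 fold change 0.12 ± 0.11). Sesn2, a leucine sensor that restrains mTORC1, was at 4.28 to 5.65 and 5.15 to 6.26 FPKM (0.13 ± 0.13), and Atf5, a transcription factor of the same family as Atf4, at 9.49 to 11.5 and 8.34 to 10.02 (-0.19 ± 0.12). Chac1, which degrades glutathione, was at 1.94 to 2.43 FPKM in Con but at 1.64, 0.909 and 2.44 in HMD, so that its HMD samples spread on both sides of Con. For all 4 of these genes the groups overlapped.

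Slc7a5 carries large neutral amino acids, methionine among them, in exchange for glutamine. It was at 25.2, 27.8 and 16.2 FPKM in Con and 30.4, 32.7 and 29.1 in HMD, or 0.43 ± 0.19 more on the log2 scale (95% interval -0.0186 to 0.879, adjusted p = 0.98). Con replicate 3 stood well below the others, and without it the log2 fold change was 0.21. Its heavy chain Slc3a2, which brings the carrier to the membrane, was at 29.1, 19.6 and 27.1 FPKM in Con and 24.9, 18.9 and 29.5 in HMD. That difference was -0.05 ± 0.20 on the log2 scale, and its sign turned when Con replicate 1, Con replicate 3 or HMD replicate 2 was left out. Slc7a5 over Slc3a2 overlapped between all groups (0.599 to 1.45 in Con, 0.984 to 1.76 in HMD and 0.874 to 1.1 in Bet+HMD, later table). In order of replicate number it was 0.865, 1.45 and 0.599 in Con and 1.23, 1.76 and 0.984 in HMD. It was thus higher in HMD at each replicate number, but the numbers were not taken to pair the samples, and this was not tested.

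Betaine after the diet was then compared with the diet alone. Of the 9 members tested, 7 were lower in Bet+HMD than in HMD at an adjusted p under 0.05 (limma) and none was higher: Phgdh, Psat1, Psph, Asns, Sesn2, Atf5 and Slc7a5. This stands against a broad background, since 48.3% of the 13672 genes tested passed, 25.5% lower and 22.8% higher. No member reached an absolute log2 fold change of 1 as well, which 8.93% of all genes did. The groups did not overlap for the same 7 members, against 60.1% of all genes. The median log2 fold change was -0.45 over the members and -0.03 over all genes tested. Over genes with a mean of at least 5 FPKM it was -0.14, and 4166 of those 7549 genes were called, 32.8% of them higher.

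All 3 serine synthesis enzymes fell, to between 51.7% and 58.5% of the HMD mean. Phgdh stood at 26.7, 23.9 and 26.7 FPKM in HMD but at 15.4, 16.2 and 12.0 in Bet+HMD, a log2 fold change of -0.80 ± 0.12 (95% interval -1.07 to -0.522, adjusted p = 0.00151). Psat1 went from 36.1, 33.2 and 35.7 FPKM to 21.1, 20.8 and 19.5 (-0.75 ± 0.07, adjusted p = 0.000256). Psph went from 4.33, 5.02 and 4.24 FPKM to 2.51, 2.14 and 2.38 (-0.73 ± 0.09, adjusted p = 0.000911). In each of the 3 genes the highest Bet+HMD sample lay well under the lowest HMD sample.

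Because these enzymes are enriched in astrocytes, markers of that cell type were read beside them. Summed over 10 astrocyte markers, FPKM ran from 792.1 to 797.2 in Bet+HMD, 779.9 to 854.5 in HMD and 791.0 to 854.4 in Con, so the Bet+HMD samples lay inside the range of the other groups. Slc1a2, the largest part of that sum, had a mean of 319.5 FPKM in HMD and 353.8 in Bet+HMD. Of the 10 markers, 6 were lower and 4 higher in Bet+HMD than in HMD. Only 3 of them were called, where 48.3% of all genes were. Gfap (-0.65 ± 0.06) and Gja1 (-0.46 ± 0.08) were lower and Sox9 (0.24 ± 0.08) was higher, while Aldh1l1 was at 0.03 ± 0.11 (adjusted p = 0.83). The part of astrocyte number in the fall of the serine enzymes was not tested.

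Among the response genes, 3 of 4 tested fell in Bet+HMD. Asns stood at 32.2, 38.8 and 34.1 FPKM in HMD and 26.2, 25.2 and 24.5 in Bet+HMD (-0.45 ± 0.09, adjusted p = 0.00444). Sesn2 went from 6.33, 5.60 and 5.30 FPKM to 4.06, 3.81 and 4.55 (-0.39 ± 0.09, adjusted p = 0.0122). Atf5 went from 9.30, 8.68 and 9.77 FPKM to 6.73, 7.43 and 6.66 (-0.37 ± 0.08, adjusted p = 0.00757). Sesn2 and Atf5 have the least firm calls of the 7. Both missed the threshold on a TPM scale, with adjusted p = 0.091 and adjusted p = 0.0922, and that scale moved the median of all genes to 0.16. Sesn2 also missed it without Bet+HMD replicate 2 (adjusted p = 0.0545), and Atf5 in a voom fit to the recovered reads (adjusted p = 0.0525).

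Chac1 and Trib3 did not follow the others. Chac1 was at 1.51, 0.957 and 2.46 FPKM in HMD but at 1.93, 2.11 and 2.14 in Bet+HMD, a log2 fold change of 0.25 ± 0.20 (95% interval -0.221 to 0.722, adjusted p = 0.337). It was called higher only when the third HMD sample, the highest, was left out (0.46, adjusted p = 0.0398). Trib3, a pseudokinase induced strongly in amino acid shortage, had too low a level to be tested. It had 0, 5 and 8 reads in the Con samples, 3, 0 and 4 in HMD and 8, 4 and 6 in Bet+HMD of the later table, at most 0.22 FPKM, and with a floor of 3 reads no difference was detectable at this depth.

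Of the exchanger, Slc7a5 went from 30.5, 33.6 and 29.4 FPKM in HMD to 19.3, 20.4 and 21.1 in Bet+HMD, a log2 fold change of -0.59 ± 0.08 (adjusted p = 0.000888). Slc3a2 was at 24.7, 19.1 and 29.9 FPKM in HMD but at 22.1, 21.8 and 19.2 in Bet+HMD (-0.19 ± 0.15, 95% interval -0.555 to 0.167, adjusted p = 0.332), and the groups overlapped. Without HMD replicate 2, its lowest HMD sample, Slc3a2 was called too (-0.36, adjusted p = 0.0315). Slc7a5 is also a transporter of the blood-brain barrier endothelium. Summed over 10 endothelial markers, FPKM was 82.98 to 84.27 in Bet+HMD, 106.0 to 112.0 in HMD and 93.97 to 105.5 in Con. Of the 10 markers, 3 were called in Bet+HMD against HMD (2 lower and 1 higher), with a list median of -0.032. That is a smaller share than the 48.3% of all genes. Most of the difference between the HMD and Bet+HMD sums came from the glucose carrier Slc2a1, at a mean of 34.69 FPKM in Con, 50.65 in HMD and 28.25 in Bet+HMD (-0.82 ± 0.07 against HMD, adjusted p = 0.00022). Cldn5 had a mean of 19.0 FPKM in Con, 13.71 in HMD and 9.694 in Bet+HMD, with every Bet+HMD sample below every HMD sample. Cdh5 was higher in Bet+HMD than in HMD (0.45 ± 0.10, adjusted p = 0.00971). Slc2a1, Cldn5 and Cdh5 are named here because of their values. The part of endothelial RNA in the Slc7a5 difference was not tested.

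**Figure D3:**
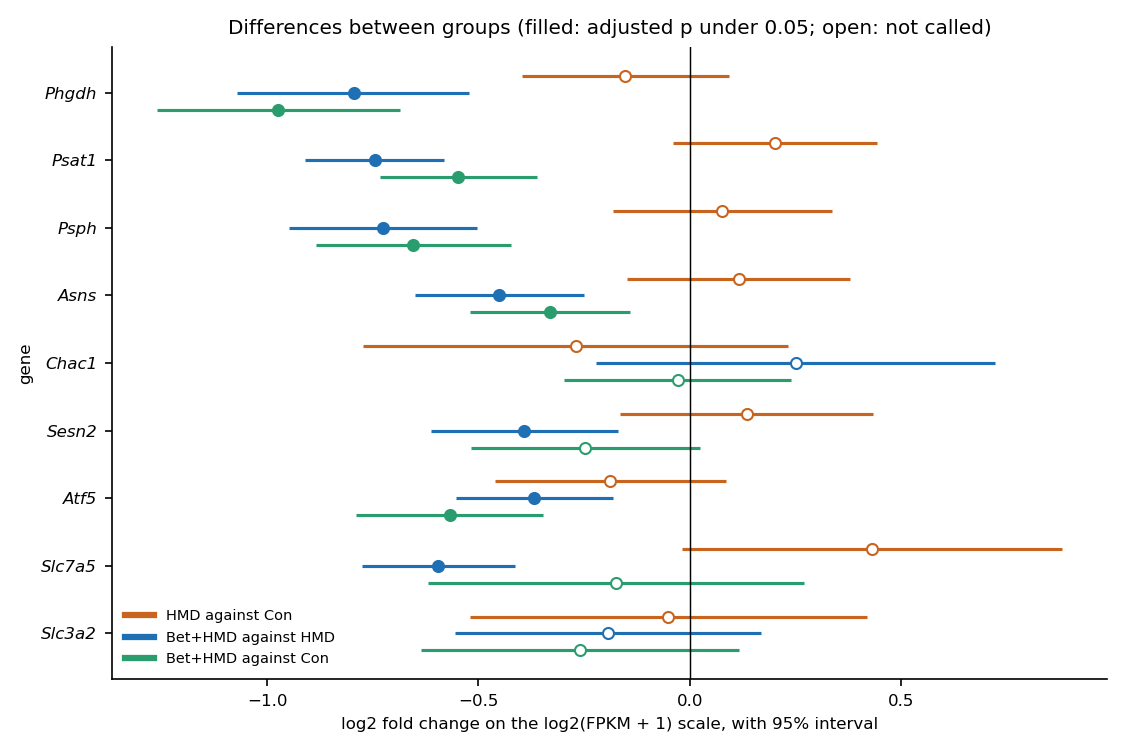
Log2 fold change on the log2(FPKM + 1) scale (horizontal axis) of the 9 tested members (vertical axis) in 3 comparisons, each of 3 samples against 3, with 95% intervals; filled points had an adjusted p under 0.05 and open points did not. All points of HMD against Con are open, and 7 members lie below 0 and filled in Bet+HMD against HMD.

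Bet+HMD was also compared with Con, which shares its Bet+HMD samples with the comparison above, so both are given side by side and not as separate support. Of the 9 members tested, 5 were lower (Phgdh, Psat1, Psph, Asns and Atf5) and none was higher, where 39.7% of the 13643 genes tested passed, 20.4% lower and 19.4% higher. None passed an absolute log2 fold change of 1 as well (8.74% of all genes did). Groups did not overlap for these 5 members and for 55.1% of all genes. The median log2 fold change was -0.33 over the members and -0.04 over all genes, or -0.134 over genes with a mean of at least 5 FPKM.

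Phgdh had the largest difference, from 27.7, 30.7 and 29.5 FPKM in Con to 15.4, 16.2 and 12.0 in Bet+HMD, 49.6% of the Con mean (-0.97 ± 0.12, adjusted p = 0.00142). Psph was at 54.9% of the Con mean (-0.65 ± 0.10, adjusted p = 0.00269) and Psat1 at 67.4% (-0.55 ± 0.08, adjusted p = 0.00235). The Con samples had 3.81, 4.504 and 4.48 FPKM of Psph and 29.0, 31.5 and 30.5 of Psat1.

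Atf5 fell from 10.96, 11.7 and 9.74 FPKM in Con to the Bet+HMD values above (-0.57 ± 0.09, adjusted p = 0.00394). Asns, at 33.2, 32.9 and 30.2 FPKM in Con, fell by a smaller amount (-0.33 ± 0.08, adjusted p = 0.0167). Its call was the weakest: it was lost on a TPM scale (adjusted p = 0.266), after quantile normalization (adjusted p = 0.333) and when any one Bet+HMD sample was left out (adjusted p = 0.0566, 0.0787 and 0.0804).

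The remaining members were not called against Con. Sesn2, at 5.84, 5.13 and 4.37 FPKM in Con, differed by -0.25 ± 0.11 (adjusted p = 0.128). Slc7a5, at 25.6, 28.5 and 16.7 FPKM in Con, differed by -0.17 ± 0.19 (95% interval -0.619 to 0.269, adjusted p = 0.492), and the Bet+HMD samples lay between Con replicate 3, the lowest, and the others of that group. Without that sample Slc7a5 (-0.40, adjusted p = 0.00997) and Sesn2 (-0.34, adjusted p = 0.036) were both called. Slc3a2, at 29.6, 19.7 and 27.8 FPKM in Con, differed by -0.26 ± 0.16 (adjusted p = 0.233), or by -0.43 (adjusted p = 0.014) without Con replicate 2. Chac1, at 2.09, 1.81 and 2.50 FPKM in Con, differed by -0.03 ± 0.11 (adjusted p = 0.855).

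**Figure D4:**
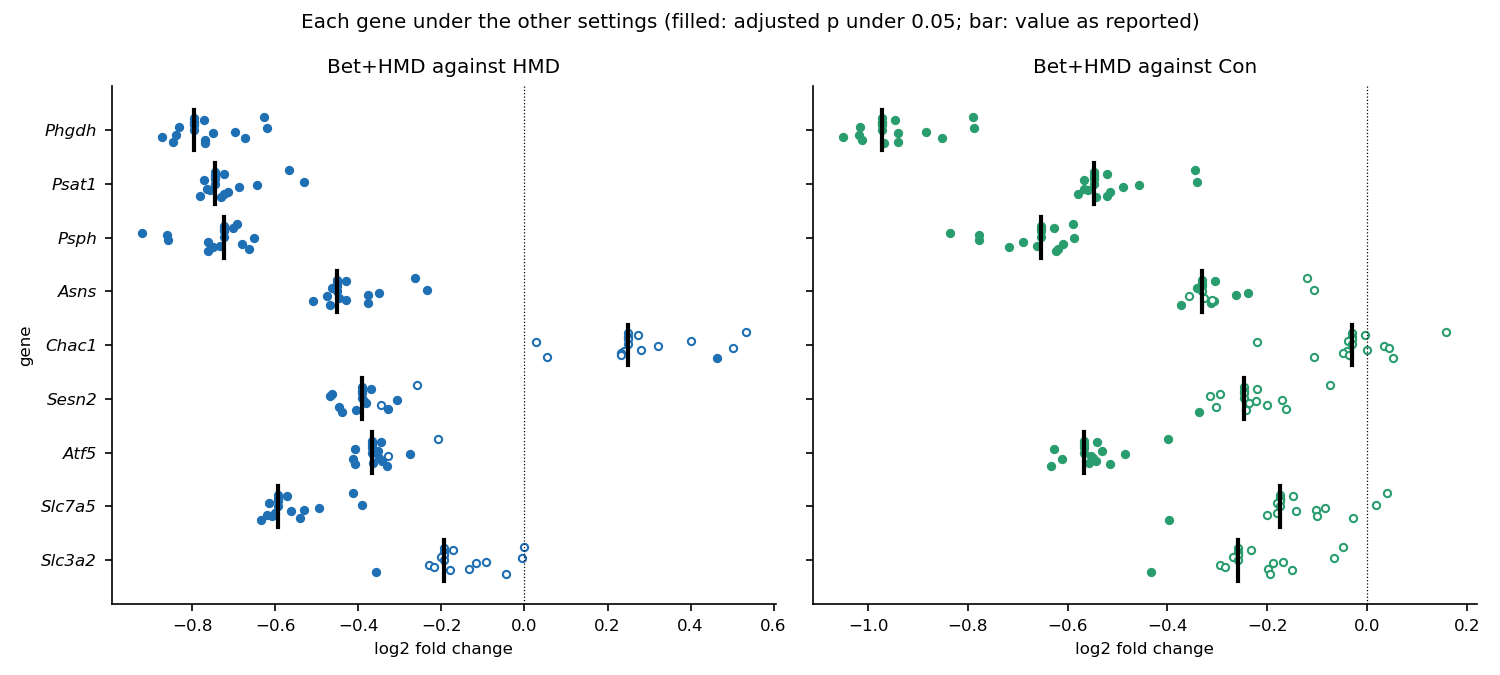
Log2 fold change (horizontal axis) of the 9 tested members (vertical axis) under 16 or 17 other settings where the gene could be tested, for Bet+HMD against HMD and against Con; small points are settings, filled where the adjusted p was under 0.05, and the black bar is the value as reported. All points of Phgdh, Psat1 and Psph are filled and below 0 in both comparisons.

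How far the calls depended on scaling matters here, because the Bet+HMD libraries differed in genes with a read, in the size used for scaling and in summed FPKM. That sum, by which a TPM scale divides, was 249135 to 258514 in Bet+HMD. It was 288439 to 307899 in Con and 289606 to 292361 in HMD (later table). The part of each in the shifts below was not tested. Among all genes called in Bet+HMD against HMD, 47.2% were higher, but 69.5% were on a TPM scale, 59.1% when scaled to the reads of protein-coding genes and 32.8% with a filter at 5 FPKM. Against Con the corresponding shares were 48.8%, 73.5%, 60.5% and 33.1%. Phgdh, Psat1 and Psph stayed lower and called in every alternative in which they were tested, at -0.62 to -0.87, -0.53 to -0.78 and -0.65 to -0.92 on the log2 scale against HMD.

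The genes around the members were read from lists of related genes. Atf4 itself, whose protein is set by translation more than by RNA, was at 22.3 to 38.6 FPKM in Con, 19.5 to 34.6 in HMD and 27.4 to 30.2 in Bet+HMD, with a log2 fold change of 0.06 ± 0.19 (adjusted p = 0.817) against HMD. Of 27 other genes of the amino acid and stress response, 19 were tested in Bet+HMD against HMD, with a median of -0.003. Called were 3 lower and 2 higher, a smaller share than the 48.3% of all genes. Ddit4, a stress-induced brake on mTORC1, was lower (-0.999 ± 0.08, adjusted p = 0.000144), as were Gpt2, the mitochondrial alanine aminotransferase (-0.56 ± 0.08, adjusted p = 0.00123), and the amino acid transporter Slc38a2 (-0.52 ± 0.11, adjusted p = 0.00599). Higher were the glycine transporter Slc6a9 (0.64 ± 0.11, adjusted p = 0.00346) and the mitochondrial serine hydroxymethyltransferase Shmt2 (0.45 ± 0.11, adjusted p = 0.0142). The list was sensitive to settings, with 9 called on a TPM scale (6 higher and 3 lower) and 3 with a filter at 5 FPKM, where fewer were tested.

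Ddit4 stood at 30.6, 28.04 and 32.2 FPKM in HMD and 14.96, 15.2 and 13.8 in Bet+HMD, but Con was wide, at 23.1, 20.2 and 44.9. Slc38a2, like Slc7a5, had its highest mean in HMD, with 15.4, 18.8 and 12.9 FPKM in Con, 26.3, 27.9 and 21.2 in HMD and 16.7, 17.1 and 17.4 in Bet+HMD. In HMD against Con it had the smallest p of its list (0.65 ± 0.17, unadjusted p = 0.00542, adjusted p = 0.86), followed by Gpt2 (0.24 ± 0.13, adjusted p = 0.98), and neither was called. Against Con, where 39.7% of all genes were called, 1 of 20 was higher in Bet+HMD (Slc6a9, 0.51 ± 0.15). Lower were 3, Ddit4 (-0.87 ± 0.27), Cebpb (-0.47 ± 0.12) and Gpt2 (-0.31 ± 0.10). Without any one of the Bet+HMD samples none of these 4 was called, without Con replicate 1 there was 1 call and without Con replicate 3 there were 7. TPM or protein-coding scaling, voom, no filter and a filter at 5 FPKM gave 1 or 2.

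Upstream of Atf4, 8 of 13 genes of eIF2 control were called in Bet+HMD against HMD, where 48.3% of all genes were, with a list median of -0.27. The amino acid sensing kinase Eif2ak4 was higher (0.41 ± 0.10, adjusted p = 0.0104). The other 7 were lower, with the eIF2B exchange factor subunits Eif2b1 (-0.61 ± 0.13), Eif2b3 (-0.51 ± 0.12) and Eif2b2 (-0.48 ± 0.16) in front. This count was 5 under TPM, quantile or protein-coding scaling, 4 without Bet+HMD replicate 1 and 5 without Bet+HMD replicate 3 or HMD replicate 1. Against Con, Eif2ak4 was higher (0.47 ± 0.08, adjusted p = 0.00464) and Eif2b5 (-0.51 ± 0.10), Eif2b3 (-0.47 ± 0.13) and Eif2b2 (-0.46 ± 0.12) were lower, of which 2 calls in all were left without any one Bet+HMD sample and under TPM, protein-coding scaling or the filter at 5 FPKM. In HMD against Con none was called, and Eif2ak2 (-0.23 ± 0.14) and Impact (0.23 ± 0.16) had the smallest p, each with an adjusted p = 0.98.

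Aminoacyl-tRNA synthetases, which load tRNAs and include further Atf4 targets, were called in 9 of 20 cases against HMD, 7 lower and 2 higher, a share near the 48.3% of all genes. Dars (aspartate) was at 17.5, 20.3 and 17.2 FPKM in HMD and 10.4, 9.88 and 10.03 in Bet+HMD (-0.80 ± 0.08, adjusted p = 0.000387), followed by Gars (glycine, -0.54 ± 0.07) and Farsb (phenylalanine, -0.40 ± 0.09). Cars (cysteine, 0.43 ± 0.09) and Sars (serine, 0.27 ± 0.08) were higher, and the median of the list was -0.09. Without Bet+HMD replicate 1 the count was 5. Against Con, where 39.7% of all genes passed, 7 were called, 5 lower and 2 higher, led by Dars (-0.76 ± 0.07), Gars (-0.50 ± 0.08), Farsb (-0.41 ± 0.08), Cars (0.41 ± 0.11) and Farsa (0.25 ± 0.08), and 3 without any one Bet+HMD sample or Con replicate 1. That count was 4 without the filter and after quantile normalization. In HMD against Con none was called, and Tars (-0.14 ± 0.11) and Iars (-0.13 ± 0.12) came first by p (adjusted p = 0.98).

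Sesn2 reports leucine to mTORC1 through the GATOR complexes, and 13 of 24 genes of that sensing machinery were called against HMD, 9 lower and 4 higher, with a median of -0.17. The share called was near that of all genes (48.3%). Slc38a9 (0.50 ± 0.11) and Kptn (0.48 ± 0.10) were among the higher ones. The Rag GTPase Rraga fell from 73.1, 72.0 and 69.0 FPKM to 40.7, 36.6 and 36.4 (-0.90 ± 0.07, adjusted p = 0.000149), with Rragb (-0.61 ± 0.10) and Sesn1 (-0.61 ± 0.07) next. Against Con 11 were called (39.7% of all genes were), 8 lower and 3 higher, among them Slc38a9 (0.56 ± 0.11), Castor2 (0.28 ± 0.09), Rraga (-0.86 ± 0.09), Rragb (-0.53 ± 0.10) and Rheb (-0.52 ± 0.10), and 7 without Bet+HMD replicate 1 or 2. In HMD against Con none was called, with Sesn1 (0.29 ± 0.10, unadjusted p = 0.0233) and Kptn (-0.23 ± 0.13) first by p, each at an adjusted p = 0.98.

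Genes that use or move serine and glycine were called in 7 of 15 cases against HMD, 5 lower and 2 higher, with a median of -0.01 and a share near the 48.3% of all genes. Gcsh, the hydrogen carrier of the glycine cleavage system, fell from 31.9, 27.9 and 28.5 FPKM to 16.3, 13.8 and 14.1 (-0.95 ± 0.09, adjusted p = 0.00028), followed by Serinc3 (-0.81 ± 0.07) and Serinc1 (-0.74 ± 0.11). Amt, another part of that system (0.62 ± 0.12, adjusted p = 0.00604), and Slc7a10, a neuronal and astrocytic serine carrier (0.55 ± 0.18, adjusted p = 0.041), were higher. Against Con 6 were called, again near the share of all genes (39.7%), with Gcsh (-0.95 ± 0.10), Serinc1 (-0.62 ± 0.13) and Serinc3 (-0.57 ± 0.17) among the 4 lower and Amt (0.59 ± 0.16) and Cbs, which joins serine to homocysteine (0.27 ± 0.08, adjusted p = 0.03), the 2 higher. That count was 2 without any one Bet+HMD sample and 3 without the filter or after quantile normalization. In HMD against Con none was called. There, Gldc, the glycine decarboxylase, had the smallest p of the list, at 11.8, 12.7 and 13.1 FPKM in Con and 7.69, 9.93 and 8.58 in HMD (-0.48 ± 0.12, unadjusted p = 0.00403, adjusted p = 0.859), and Srr came next (-0.23 ± 0.10, adjusted p = 0.98).

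**Figure D5:**
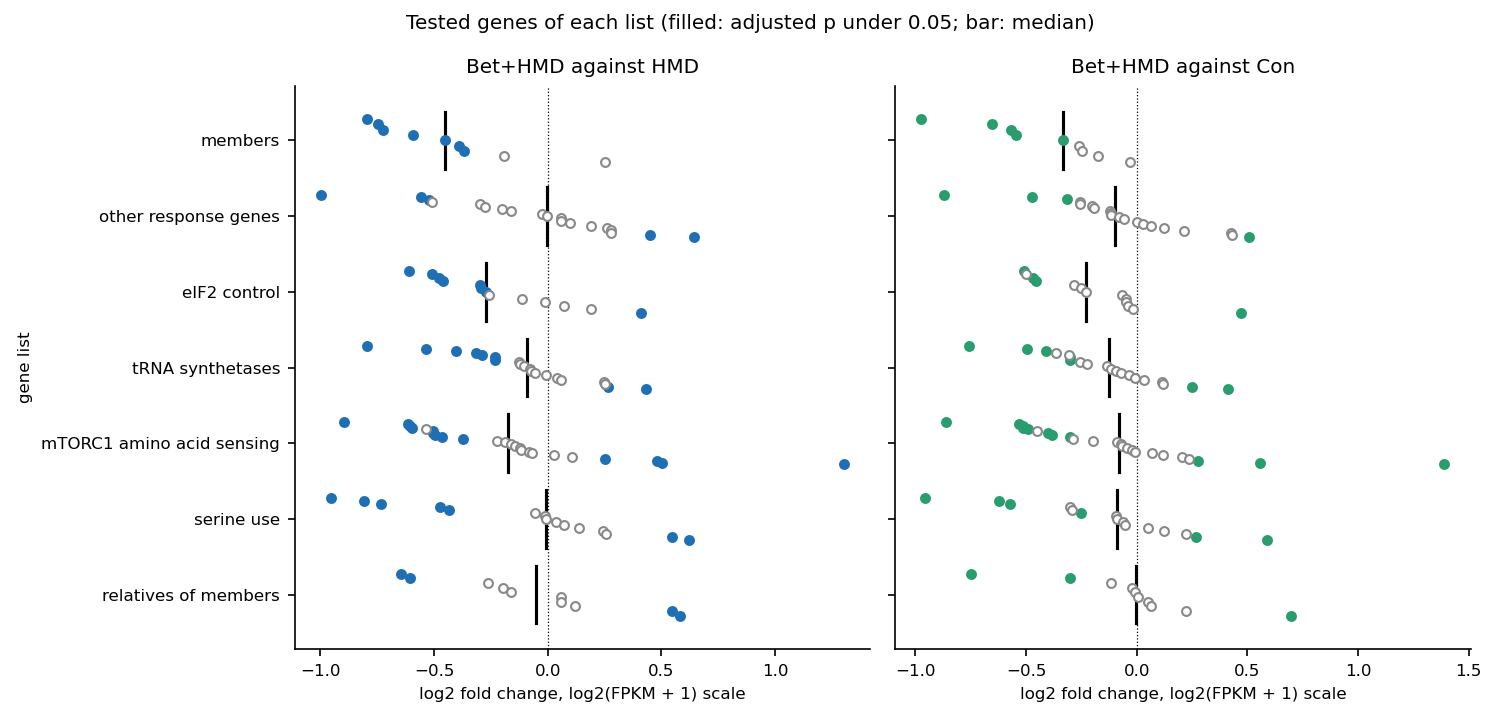
Log2 fold change (horizontal axis) of the tested genes of each list (vertical axis) in Bet+HMD against HMD and against Con; each point is a gene, filled where its adjusted p was under 0.05, and the black bar is the list's median. The median of the members lies at -0.45 and -0.33, and those of the other lists between -0.27 and -0.002.

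Relatives of the members did not all move like them. Of the 11 listed, 10 were tested and 0 were called in HMD against Con. In Bet+HMD against HMD 4 were called (median -0.05), and in Bet+HMD against Con 3 were. Neither share exceeds that of all genes (48.3% and 39.7%). Sesn1 went with Sesn2, at 19.6 ± 0.954 FPKM in Con, 24.4 ± 1.35 in HMD but 15.7 ± 0.762 after betaine (SD, n = 3), and was lower against HMD (-0.61 ± 0.07, adjusted p = 0.00071) and against Con (-0.30 ± 0.08, adjusted p = 0.024). Sesn3 had a mean of 14.6 ± 1.06 FPKM in HMD against 12.9 ± 0.264 with betaine (-0.16 ± 0.08, adjusted p = 0.118). Chac2, which acts on glutathione like Chac1, was lower, with 8.25 ± 0.762 FPKM in HMD against 4.92 ± 0.45 with betaine (-0.65 ± 0.09, adjusted p = 0.00149), and also against Con (-0.75 ± 0.16, adjusted p = 0.0114).

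The pseudokinases Trib1 (2.35, 2.77 and 2.28 FPKM as means of Con, HMD and Bet+HMD) and Trib2 (8.50, 10.4 and 8.47) were called in no comparison, and both were far above Trib3 in level. Of the light chains that, like Slc7a5, pair with Slc3a2, Slc7a6 was higher, with 3.89 ± 0.283 FPKM in HMD against 6.31 ± 0.314 after betaine (0.58 ± 0.08, adjusted p = 0.00117) and against Con (0.70 ± 0.09, adjusted p = 0.00193), so it moved opposite to Slc7a5 against HMD. Slc7a8 was at 17.0, 16.0 and 17.4 FPKM as group means and Slc7a11, the cystine carrier, at 4.82, 4.83 and 5.04, and neither was called. Slc7a10 had 8.85 ± 2.3 FPKM in HMD against 13.2 ± 1.89 after betaine. Slc7a7, with means of 0.869, 0.690 and 0.937 FPKM, was too low to be tested.

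Marker lists were read to show what else differed between the libraries. In Bet+HMD against HMD, 5 of 8 oligodendrocyte, 4 of 8 microglial and 4 of 9 neuronal markers were lower, with 2 neuronal ones higher, and 0 of 8 choroid plexus markers were called. Of all genes, 48.3% were called there, 25.5% lower. Against Con the lower markers were 4, 4 and 2 of the same lists, with 3 astrocytic and 1 endothelial, and again 0 of the choroid plexus. Of all genes, 39.7% were called against Con, 20.4% lower. Microglial markers summed to 102.3 to 108.4 FPKM in Bet+HMD, below HMD (124.2 to 143.9) and Con (144.3 to 165.7), with no overlap. The neuronal sums (1485.0 to 1499.0) were all below those of HMD (1537.0 to 1785.0) and at the lower edge of those of Con (1487.0 to 1721.0). The oligodendrocyte sums (861.2 to 866.8) were likewise all below HMD (942.5 to 1241.0) but inside the range of Con (818.8 to 1355.0). Choroid plexus markers, led by Ttr, ran from 775.4 to 3226.0 FPKM within Con alone. In HMD the summed thalamus markers (25.62 to 87.54 FPKM) and red blood cell markers (149.4 to 233.2) exceeded those of Con (14.96 to 20.01 and 99.75 to 147.6), and in Bet+HMD they were 23.96 to 25.48 and 72.18 to 122.4. Hippocampal markers were present throughout, at 168.7 to 224.0 FPKM. Of the thalamus and red cell lists, 2 genes each were called in either comparison with Bet+HMD, and 1 and 3 of the hippocampal list against HMD and Con. The part of tissue make-up in the differences of the members was not tested.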

How the data were processed

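Total RNA of the hippocampus was sequenced in 9 samples. Per the study's methods ribosomal RNA was depleted and stranded paired-end libraries were made, with a kit named for stranded mRNA. Those methods describe no betaine group, so they do not say how the Bet+HMD libraries were made. The submitters' processing notes name HISAT2 2.1.0, featureCounts 1.5.0-p3 and mm10. The authors deposited FPKM per gene in 2 tables, with each gene's length in bases. A library size was fitted for each sample so that FPKM times gene length and that size gave whole reads. With it, 100% of values were whole (within 0.01), and the read numbers given here come from that fit. Samples were grouped by title. The control columns carry the prefix COL, so that match is inferred. No value column was left without a sample.

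Because the deposited values are FPKM and not counts, limma 3.58.1 (R 4.3.3; lmFit, eBayes with trend) modelled log2(FPKM + 1) in only the groups compared, for all genes with a mean of at least 1 FPKM. p-values are two-sided, with Benjamini-Hochberg adjustment across every gene tested and calls under 0.05. Fold changes on this scale understate changes of low genes. SE is the moderated standard error, SD is over 3 samples. Replicates are separate libraries by their titles, and nothing says that they came from separate cages. HMD against Con used the earlier table, comparisons with Bet+HMD the later one. A floor of 3 reads was at most 1.87e-05% of a library and covers counting error only.

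The 10 members and the lists were chosen with earlier results of these data known. The lists hold the other response genes, eIF2 control, tRNA synthetases, mTORC1 amino acid sensing, serine use, relatives of the members, and markers of cell types, regions, blood and sex. From each pathway list the text names up to 3 called genes per direction with the largest log2 fold change, or the 2 with the smallest p where none was called, and the relatives by their values. A gene that this rule names is not reported here. Promoter windows are from RefSeq (GRCm38.p6). Scripts were tested on simulated data. Alternatives were a pseudocount of 0.1, no filter or one at 5 FPKM, TPM, quantile, median-ratio and protein-coding scaling, no trend, all 3 groups in one fit, voom, a replicate block, the other table for HMD against Con, and each sample left out in turn.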

Additional observations from a re-analysis of the deposited data

How the results depend on the processing

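No member was called in HMD against Con under any of the 18 alternatives. In Bet+HMD against HMD the number of members called was 7, and 5 to 8 under the alternatives (6 to 8 when leaving out 1 sample, 5 on a TPM scale, 6 with voom). It was also 5 with a filter at 5 FPKM, but there Psph and Sesn2 were not tested. In Bet+HMD against Con it was 5, and 4 to 7 when leaving out 1 sample and 4 to 5 otherwise, where the filter at 5 FPKM left Psph untested. Of 460 single values of the members under the alternatives, 435 kept their sign and side of the threshold, 10 lost a call, 5 gained one and 10 changed sign, all of the last for genes that were not called. Slc3a2 in HMD against Con ran from -0.22 to 0.11 when leaving out 1 sample. Chac1 in Bet+HMD against Con was 0.16 on a TPM scale, 0.0347 with protein-coding scaling, 0.0436 with voom and -0.105 to 0.0533 when leaving out 1 sample. Slc7a5 there was 0.0398 on a TPM scale and 0.0179 after quantile normalization. The cause was not tested.

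The replicate numbers were not taken to pair the samples, since in no comparison did every sample correlate best with its own number. For HMD and Con, however, Con replicates 2 and 3 did so, while Con replicate 1 correlated best with HMD replicate 3. The correlations of same-numbered samples across genes were -0.0555, 0.346 and 0.319 for HMD and Con. They were 0.0171, -0.102 and -0.151 for Bet+HMD and HMD, and -0.0489, -0.0902 and -0.176 for Bet+HMD and Con. With a block for the replicate number, the members called were 0, 7 and 4, with Asns against Con at an adjusted p = 0.0703, and genes called in all were 0, 5615 and 3924 against 0, 6607 and 5422. Against HMD the block left 5 tRNA synthetases called. Against Con it left 2 other response genes, 3 tRNA synthetases, 7 mTORC1 genes and 2 serine use genes. Low levels limit Trib3 and Chac1, which had 0 to 8 and 24 to 70 reads per library in the later table.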
